A study of Homo sapiens and Mus musculus with 27 samples.

Results

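LM2 cells that overexpressed caMKL1, taken here as the active form, were compared with LM2 cells that overexpressed wild-type MKL1, to describe what the active form added to the wild-type form's messenger RNA pattern and what it reversed. The comparison was defined by the treatment labels and took 6 of the series' 27 libraries, 3 of caMKL1 and 3 of MKL1. A further 3 LM2 control libraries served as the baseline, and 6 libraries of the mouse breast cancer line 4T1 gave the same contrast in another line. LM2 is a lung-metastatic subline of the human breast cancer line MDA-MB-231. The treatment of the caMKL1 group was caMKL1 OE, that of the MKL1 group was WT MKL1 OE, and the control libraries had no overexpression named. The genotype label of the MKL1 and control libraries was WT, while those of the caMKL1 libraries ran caMKL1, caMKL2 and caMKL3, against 1 treatment label and 1 title for all 3, so they were taken as replicates of caMKL1. Construct sequences, their delivery and the promoters that drive them are not given in the labels, nor is whether replicates were separate cultures. The p-values therefore measure the spread between these libraries, which may be technical.

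MKL1, now named MRTFA, is a coactivator of the transcription factor SRF. Its RPEL motifs bind monomeric actin, which holds it in the cytoplasm, and constitutively active forms used in the field usually lack that region. With SRF it binds CArG boxes near genes of the actin cytoskeleton, smooth muscle contraction and cell adhesion, while ternary complex factors such as ELK1 recruit SRF to immediate early genes.

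RNA was polyA selected, and the LM2 libraries held 22147429 to 32147377 counted read pairs. Levels are given as CPM, counts brought to a common library size after TMM adjustment. Where genes are compared or summed, and for the line's markers, TPM is given, which divides by exon length and has no TMM adjustment. Group ratios on the TPM scale therefore differ from the log2 ratios, which come from the TMM-scaled test. A gene was called when its adjusted p in edgeR's quasi-likelihood test over the 9 LM2 libraries was below 0.05. Of the labelled line's markers, VIM had 3233 ± 260 TPM in caMKL1, 1833 ± 205 TPM in MKL1 and 1252 ± 40.9 TPM in control libraries (SD, n = 3 each). CD44 averaged 133.9, 238.8 and 149.2 TPM, EGFR 41.8, 184.5 and 196.2 TPM and AXL 83.98, 439.5 and 553.2 TPM in the same 3 groups, so these 3 were lower in caMKL1 than in MKL1. In the TMM-scaled test the log2 ratios of caMKL1 over MKL1 were 1.33 for VIM, -0.345 for CD44, -1.66 for EGFR and -1.92 for AXL. Of the markers known to be low in the line, ESR1, PGR and CDH1 were at or below 1.01 TPM in every library, but ERBB2 had 2.28 to 10.3 TPM and EPCAM 21.3 to 37.6 TPM, with EPCAM higher in caMKL1 than in MKL1 (log2 ratio 1.13). Replicate 1 stood apart in both groups: in caMKL1 its chi-square per gene against replicates 2 and 3 was 48.6 and 53.0, against 3.13 between those 2, and in MKL1 52.7 and 37.04, against 21.6. Mitochondrially encoded RNA took 7.76, 13.4 and 13.6% of counts in the caMKL1 libraries and 6.18, 9.87 and 7.11% in the MKL1 libraries.

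MRTFA, the overexpressed gene (chr22:40410281-40636719, GRCh38), had 175, 257 and 223 CPM in the caMKL1 libraries, 164, 180.6 and 140.2 CPM in the MKL1 libraries and 10.6, 10.3 and 11.5 CPM in the control libraries. Both overexpressing groups lay far above control without overlap, and they overlapped each other. The log2 ratio of caMKL1 over MKL1 was 0.43 ± 0.12 (SE; adjusted p = 0.0065), was no longer called without caMKL1 replicate 2 (0.30, adjusted p = 0.058) and was 0.09 (adjusted p = 0.45) when libraries were scaled by their totals. On the TPM scale MRTFA averaged 75.1 ± 5.69 in caMKL1 and 79.5 ± 4.96 in MKL1 libraries (SD, n = 3 each). Reads from the construct and from the cell's own gene cannot be told apart in these counts. SRF, the DNA-binding partner, had 159.9, 136 and 129.9 CPM in caMKL1 libraries, 66.5, 52.8 and 54.9 CPM in MKL1 libraries and 31.7, 32.4 and 30.5 CPM in control libraries, a log2 ratio of 1.29 (adjusted p = 2.4e-08) with no overlap. MRTFB, the paralogous coactivator, went the other way, with 20.997, 19.3 and 20.9 CPM in caMKL1 and 45.6, 56.6 and 59.1 CPM in MKL1 libraries (log2 ratio -1.40, adjusted p = 9e-09). Of the 7 tested members of the wider list of MRTF, SRF and ternary complex factor genes, 2 were higher (MRTFA and SRF), 4 were lower (MRTFB, SCAI, ELK3 and ELK4) and 1 did not pass, with a median log2 ratio of -0.24.

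**Figure D1:**
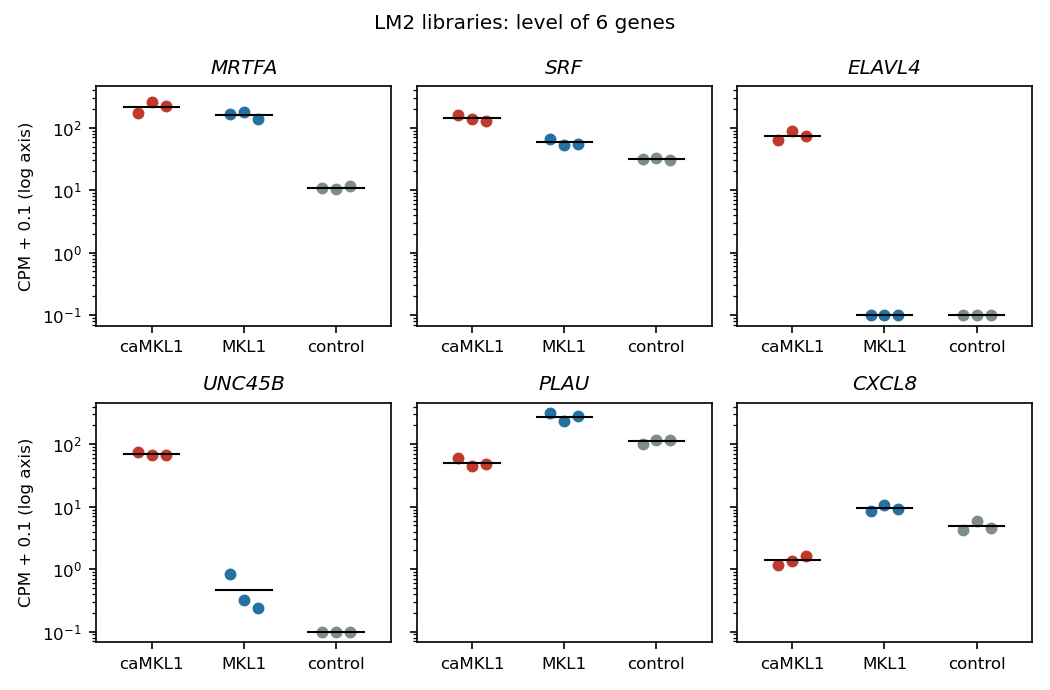
CPM + 0.1 on a log axis for 6 genes in each LM2 library, with caMKL1, MKL1 and control from left to right and a black line at each group's mean (n = 3 each). MRTFA overlaps between caMKL1 and MKL1, ELAVL4 is at 0 outside caMKL1, and PLAU and CXCL8 are highest in MKL1 and lowest in caMKL1.

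Across the 18893 genes tested, 6150 were higher and 6036 lower in caMKL1 than in MKL1, which is 32.6% and 31.9% of all genes and 64.5% together. At 2-fold or more, 3676 genes (19.5%) were higher and 2713 (14.4%) lower. Large changes were mostly on the side of higher genes: at least 16-fold, 396 genes were higher and 27 lower, and at least 64-fold, 77 were higher and 7 lower. The median log2 ratio of all genes was -0.04. Scaling by library totals shifted it by -0.33, with 4429 genes higher and 8638 lower, so log2 ratios near 0 depend on the scaling. Among the 500 most variable genes the first principal component held 93.2% of the variance and placed the MKL1 libraries (-23.3 to -13.8) between the caMKL1 libraries (70.1 to 71.1) and the control libraries (-52.4 to -50.2), nearer to control. MKL1 against control gave 1378 higher and 899 lower genes. With 1 control library left out, the 2277 calls of that contrast came to 1295, 1269 and 1113 without control replicate 1, 2 and 3. It shares the MKL1 libraries with the contrast described here, so counts that combine both, below, are descriptions with no test.

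The largest additions by caMKL1 were genes with almost no RNA in either other group. ELAVL4, which encodes the neuronal RNA-binding protein HuD (chr1:50024029-50203772), had 63.95, 87.6 and 72.7 CPM in the caMKL1 libraries, 4990 counts in all, and not 1 count in the 6 MKL1 and control libraries. This puts it at least 2176-fold above MKL1 when the MKL1 group is set to 3 counts. In bulk RNA, more cells with a transcript and more RNA per cell cannot be told apart. Other neuronal genes did not move with it: of 8 tested members of a neuronal list, ELAVL4 alone was higher, 5 were lower and 2 did not pass, and 11 more members had too few counts to be tested. Among all genes, 32.6% were higher and 31.9% lower. UNC45B, a myosin chaperone of striated muscle (chr17:35147817-35189345), had 75.3, 66.4 and 66.6 CPM in caMKL1, 0.735, 0.217 and 0.142 CPM in MKL1 and no counts in control libraries, a log2 ratio of 7.56 ± 0.29 over MKL1 (adjusted p = 5e-11).

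Similar on and off patterns were found for genes of unrelated tissues. TNMD, a tendon membrane protein, had 17.04, 14.8 and 13.8 CPM in caMKL1 against 0.301, 0 and 0.0570 CPM in MKL1 libraries. TCHH, the hair follicle protein trichohyalin, had 87.9, 76.04 and 80.6 CPM against 1.47, 0.953 and 0.370 CPM, and TLR7, an endosomal receptor for single-stranded RNA, 21.5, 24.5 and 23.3 CPM against 0.234, 0.346 and 0.341 CPM. None of these ranges overlapped, and the log2 ratios were 6.88, 6.49 and 6.21 (adjusted p between 9.2e-12 and 2.3e-09). The retrotransposon-derived gene RTL3 (6.20), the platelet glycoprotein gene GP5 (6.07), the divergent transcript KDM7A-DT (6.06) and the LIM-only transcription regulator LMO3 (6.03) were also among the 10 largest rises. LMO3 had the highest CPM of them, a measure not corrected for exon length. Its levels were 119, 156 and 152 CPM in caMKL1, 1.70, 2.38 and 2.45 CPM in MKL1 and 1.42, 1.90 and 2.07 CPM in control libraries, so the MKL1 and control ranges overlapped. LRRC9 (6.00) and the nuclear receptor gene NR4A3 (5.89) were among the 8 largest rises of genes not called between MKL1 and control.

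Of 131 genes called at least 2-fold higher in MKL1 than in control, with at least 5 CPM and no overlap, 90 were higher again in caMKL1 than in MKL1, 28 were lower and 13 did not pass. Over all genes the shares were 32.6% higher and 31.9% lower. The caMKL1 libraries lay above the control range for 111 of the 131 and below it for 9. For the 16616 genes not called between MKL1 and control, they lay above it in 5360 and below it in 6122. The 131 were chosen for control levels below MKL1, so their positions against control are a description. Of 21 genes called at least 2-fold lower in MKL1 than in control by the same rule, 11 were lower again in caMKL1, 5 were higher and 5 did not pass. Of the 16616 genes not called between MKL1 and control, 5035 were higher in caMKL1 than in MKL1, 5375 were lower and 6206 did not pass.

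The muscle and cytoskeletal targets of MRTF and SRF were mostly higher in caMKL1. Of 35 tested MRTF-SRF cytoskeletal targets, 29 were higher in caMKL1 than in MKL1, 2 were lower and 4 did not pass, with a median log2 ratio of 1.43 against -0.04 for all genes. Of 15 smooth muscle contractile genes, 13 were higher and 2 did not pass (median 4.23). ACTC1, the cardiac alpha-actin, had 3170, 2079 and 1961 CPM in caMKL1 libraries, 125, 54.7 and 46.1 CPM in MKL1 libraries and at most 0.038 CPM in control libraries. The smooth muscle actins followed, ACTA2 with 2214, 2034 and 2113 CPM in caMKL1 against 159, 87.8 and 65.2 CPM in MKL1 libraries and ACTG2 with 4540, 3556 and 3487 CPM against 337, 152 and 128 CPM. Each range in caMKL1 lay more than 10-fold above the MKL1 range, and the MKL1 range in turn above control, with log2 ratios of caMKL1 over MKL1 of 4.99, 4.35 and 4.23. MKL1 replicate 1 was the highest of the MKL1 libraries for all 3. LMOD1, which nucleates actin filaments in smooth muscle (5.22), MYLK, the myosin light chain kinase (4.06), and CALD1, the actin-binding caldesmon (3.33), rose as well.

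Summed actin RNA was higher in caMKL1 and differed in kind. The 6 actin genes summed to 28720, 19150 and 19430 TPM in caMKL1, 10420, 5836 and 6832 TPM in MKL1 and 2805 to 3058 TPM in control libraries. The 4 muscle actins held 38.2, 31.7 and 30.5% of this sum in caMKL1, 7.41, 5.46 and 4.49% in MKL1 and at most 0.048% in control libraries, and no groups overlapped. ACTG1, the cytoplasmic gamma-actin, took 4.51 to 5.89% of the sum in caMKL1 and 20.4 to 23.7% in MKL1 libraries. In CPM, ACTG1 had 2075, 1592 and 1490 in caMKL1 and 2497, 1412 and 1618 in MKL1 libraries and did not pass the test (log2 ratio -0.10, adjusted p = 0.63), whereas ACTB, the beta-actin, rose (1.81, adjusted p = 1.1e-08). Actin genes are near-identical in their coding parts, and the counting tool by default leaves out reads that map to more than 1 place.

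**Figure D2:**
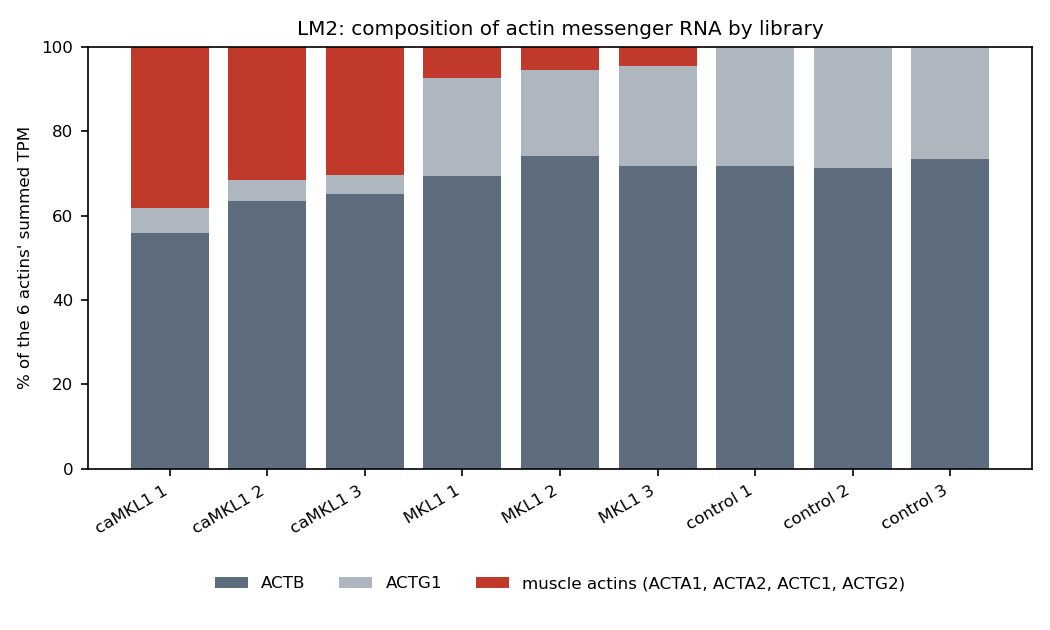
Share of the summed TPM of 6 actin genes held by ACTB, ACTG1 and the 4 muscle actins in each LM2 library, as stacked bars with caMKL1 left, MKL1 in the middle and control right. The muscle actins take 30.5 to 38.2% in caMKL1 and 4.49 to 7.41% in MKL1 libraries.

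The promoters of the 2 actin genes that rose most and hold a CArG box are shown, since this element is the site SRF is known to bind. Sequences are from RefSeq (GRCh38.p14), run from 250 bases before to 50 bases after the start, and have the CArG boxes and, in ACTG2, the reverse-strand TTTGAA match in capitals. ACTC1 lies at chr15:34795500-34795799 on the minus strand and ACTG2 at chr2:73892758-73893057 on the plus strand.
ACTC1: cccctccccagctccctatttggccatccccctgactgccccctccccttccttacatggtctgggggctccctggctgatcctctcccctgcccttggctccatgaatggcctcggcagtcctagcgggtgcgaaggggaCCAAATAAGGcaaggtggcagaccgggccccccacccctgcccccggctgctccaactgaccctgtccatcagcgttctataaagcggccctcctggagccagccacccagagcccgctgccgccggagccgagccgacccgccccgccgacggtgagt
ACTG2: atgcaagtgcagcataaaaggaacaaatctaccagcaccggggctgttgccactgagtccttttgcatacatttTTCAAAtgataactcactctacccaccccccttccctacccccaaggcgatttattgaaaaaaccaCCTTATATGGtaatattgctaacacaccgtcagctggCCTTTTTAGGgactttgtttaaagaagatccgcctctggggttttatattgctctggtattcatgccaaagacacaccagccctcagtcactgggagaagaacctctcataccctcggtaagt
Of 30 cytoskeletal targets with a promoter in the table, 8 (26.7%) held an exact CArG box in these 300 bases: ACTC1, ACTG1, ACTG2, CNN2, FHL2, FLNA, SRF and TPM4. The share was 2.75% of 2107 promoters of genes called at least 2-fold higher, 0.429% of 1630 promoters of genes called at least 2-fold lower, 1.23% of the 11571 promoters found for the 18893 tested genes and 1.29% of all 27305 promoters. The ACTA2 promoter in the table holds no exact match. ACTG1 and CNN2 hold a box and did not pass the test. The cytoskeletal list is made of known MRTF and SRF targets, which partly fixes its share of CArG boxes.

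Striated muscle genes were raised in part. Of 13 tested striated muscle and myosin folding genes, 8 were higher, 3 lower and 2 did not pass (median 2.47), beside 32.6% higher and 31.9% lower over all genes. The list had 22 members. Those not tested had too few counts, among them the sarcomere genes TNNT2, TNNC1, TNNI1 and MYH7. ACTA1, the skeletal alpha-actin, did not pass (log2 ratio 0.71, adjusted p = 0.16). MYL1, a fast skeletal myosin light chain, was at 1.04, 0.517 and 0.745 CPM in caMKL1 libraries with no count in MKL1 libraries, at least 23.1-fold higher against the floor of 3 counts for the group. TTN, the giant sarcomere protein titin, had 76.6, 87.7 and 96.4 CPM against 14.03, 15.9 and 16.9 CPM (log2 ratio 2.47), whereas XIRP2, an actin-binding protein of muscle junctions, fell (-2.91).

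Adhesion and matrix genes were mostly higher too. Of 30 focal adhesion and integrin genes, 23 were higher, 6 lower and 1 did not pass (median 1.22). ITGA5, the fibronectin receptor's alpha subunit, had 2398, 1848 and 1725 CPM in caMKL1 and 348, 235 and 215 CPM in MKL1 libraries, and ITGA2, a collagen receptor subunit, had 65.3, 57.8 and 61.6 CPM against 258, 343 and 417 CPM. The first was above and the other below without overlap, at log2 ratios of 2.90 and -2.46. Of 23 collagens and matrix genes, 14 were higher, 2 lower and 7 did not pass (median 0.72). FN1, fibronectin, which MKL1 had already raised (2.62 over control), rose by a further 2.16, and COL5A2, a fibrillar collagen chain not called between MKL1 and control (0.14, adjusted p = 0.63), rose by 4.42. Of 22 YAP-TEAD targets, 9 were higher, 8 lower and 5 did not pass (median -0.04), beside 32.6% higher and 31.9% lower over all genes. The matricellular genes CCN1 (1.94) and CCN2 (3.00) rose, while the receptor kinase gene AXL (-1.92) fell.

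**Figure D3:**
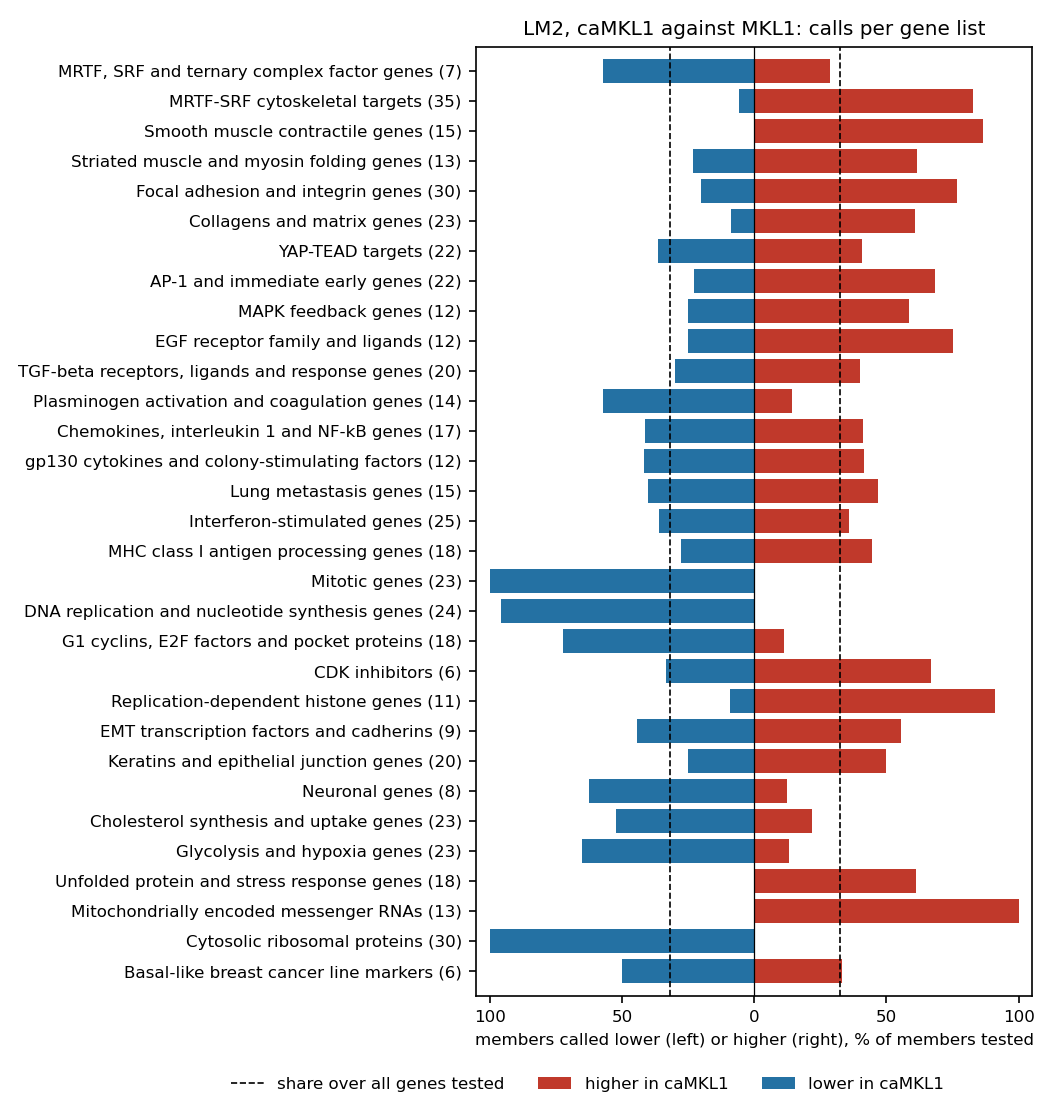
Share of the tested members of gene lists with at least 6 tested members each that was called higher (red, right) or lower (blue, left) in caMKL1 than in MKL1, with the number tested in parentheses. Dashed lines mark the shares over all genes, 32.6% higher and 31.9% lower.

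Immediate early genes, which ternary complex factors and SRF control in many cells, were higher with caMKL1. Of 22 AP-1 and immediate early genes, 15 were higher, 5 lower and 2 did not pass (median 1.27). FOS, an AP-1 subunit, had 95.9, 81.4 and 98.3 CPM in caMKL1, 2.14, 2.12 and 1.93 CPM in MKL1 and 1.46, 1.75 and 1.40 CPM in control libraries, so caMKL1 stood far above 2 groups that lay close together (log2 ratio over MKL1 5.48 ± 0.14, adjusted p = 1.2e-13). EGR1, a zinc finger factor induced by growth factors, had 268, 273 and 289 CPM in caMKL1 and 20.1, 14.9 and 12.5 CPM in MKL1 libraries, and in MKL1 it was below control (-0.65, adjusted p = 0.023). MYC (-1.75), JUN (-1.08) and FOSL1 (-0.94) fell. Of 12 MAPK feedback genes, 7 were higher, 3 lower and 2 did not pass (median 0.41), with the phosphatase genes DUSP2 (3.49) and DUSP4 (-2.65) at opposite ends. Among all genes tested, 32.6% were higher and 31.9% lower.

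Receptors of the EGF family moved in opposite directions. Of 12 tested, 9 were higher and 3 lower (median 1.05). EGFR had 193, 198 and 190.5 CPM in caMKL1 and 538, 673 and 623 CPM in MKL1 libraries (log2 ratio -1.66), while ERBB4, a receptor of the same family, had 45.1, 50.7 and 55.8 CPM against 1.27, 1.21 and 1.08 CPM (5.41) and BTC, a ligand of both, 29.4, 35.6 and 37.3 CPM against 2.54, 1.47 and 1.91 CPM (4.09). Of 20 tested genes of the TGF-beta list, 8 were higher, 6 lower and 6 did not pass (median 0.02), beside 32.6% higher and 31.9% lower over all genes. The coreceptor endoglin, ENG (-3.39), the ligand TGFB1 (-1.60) and the receptor TGFBR2 (-1.67) were lower, and TGFBR1 (1.54) and the inhibitor of differentiation ID2 (4.33) were higher.

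The reversals were fewer. Of the 131 genes raised by MKL1, 17 were called at least 2-fold lower in caMKL1 than in MKL1 with at least 5 CPM and no overlap. By the same rule, 1095 of the 16616 genes not called between MKL1 and control were lower. The 131 had been held to 5 CPM and no overlap beforehand and the 16616 had not, so these 2 counts have unlike bases. By fold and test alone, a looser rule, 14.4% of all genes were called at least 2-fold lower. Because the same MKL1 libraries raise the first contrast and lower the other, the count of 17 is a description. The caMKL1 libraries lay below the control range for 9 of the 17, overlapped it for 7 and lay above it for 1, KRT7. The control and caMKL1 values were both used to choose the 17, so these positions are a description too. For the 16616 genes not called between MKL1 and control, caMKL1 lay below the control range in 6122 and above it in 5360.

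PLAU, which encodes urokinase, the protease that activates plasminogen (chr10:73909177-73917496), had 59.7, 44.6 and 48.3 CPM in caMKL1, 312.1, 238 and 285 CPM in MKL1 and 101.9, 115 and 119 CPM in control libraries. The 3 groups did not overlap: MKL1 was above control (log2 ratio 1.31, adjusted p = 2.1e-06) and caMKL1 below both (-2.45 ± 0.13 against MKL1, adjusted p = 7.7e-11). TGM2, transglutaminase 2, had the same order at 67.3, 52.9 and 46.5 CPM in caMKL1, 511, 370.8 and 384 CPM in MKL1 and 140.0, 137 and 141 CPM in control libraries. TNFSF15, a TNF family cytokine, had 0.846, 1.36 and 1.59 CPM, 7.88, 11.04 and 17.1 CPM and 2.52, 2.62 and 3.47 CPM in the same 3 groups, and was the largest of the reversals at -3.27. CPA4, a carboxypeptidase (-3.17), G0S2, an inhibitor of lipolysis (-2.92), APCDD1L (-2.36), the hair keratin KRT81 (-2.27) and MYC (-1.75) were also called lower in caMKL1 than in control. The noncoding RNA LNCOG (-2.17) lay below the control range but was not called against control (-0.47, adjusted p = 0.076).

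In 7 genes, among them SNAI2, MANCR, SEMA7A, LINC00452, NOG and TGFBI, the caMKL1 libraries overlapped the control range. SNAI2, an EMT transcription factor, had 13.3, 18.6 and 16.7 CPM in caMKL1, 39.9, 53.2 and 35.4 CPM in MKL1 and 19.0, 18.5 and 19.2 CPM in control libraries, and TGFBI, a TGF-beta-induced matrix protein, had 134, 109.1 and 85.8 CPM, 290.5, 198 and 227 CPM and 100.1, 108 and 108 CPM. KRT7, a simple epithelial keratin, had 75.4, 63.5 and 51.8 CPM in caMKL1, 181.2, 135 and 125 CPM in MKL1 and 50.6, 49.1 and 50.2 CPM in control libraries, so its reversal was partial.

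**Figure D4:**
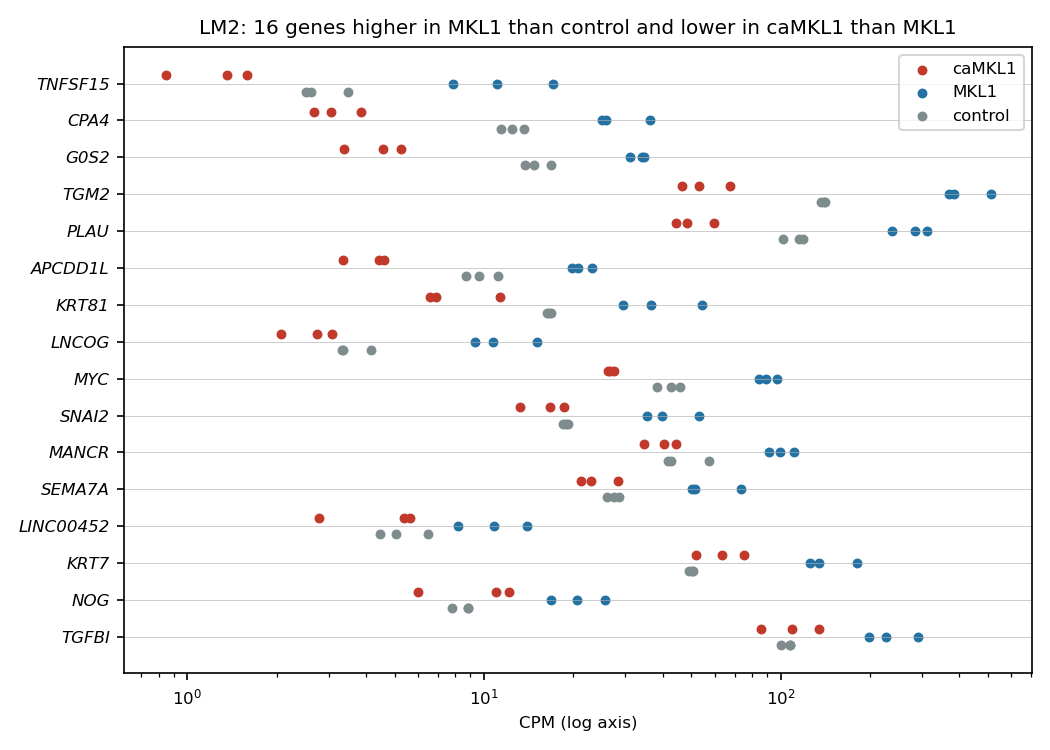
CPM on a log axis of 16 of the 17 genes called at least 2-fold higher in MKL1 than in control and at least 2-fold lower in caMKL1 than in MKL1, 1 point per LM2 library (n = 3 per group; caMKL1 above MKL1 above control within each gene). In all 16 the MKL1 points lie right of the caMKL1 points, and in the 9 topmost genes the caMKL1 points also lie left of the control points.

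Genes of the plasminogen system were mostly lower or not called. Of 14 plasminogen activation and coagulation genes, 8 were lower, 2 higher and 4 did not pass (median -0.87), beside 31.9% lower and 32.6% higher over all genes. Besides PLAU, its receptor PLAUR had 11.6, 10.5 and 10.2 CPM in caMKL1 and 49.997, 36.2 and 32.4 CPM in MKL1 libraries, the coagulation inhibitor TFPI had 31.7, 33.3 and 34.4 CPM against 171, 201 and 208 CPM, and F2RL1, a protease-activated receptor, 44.1, 36.3 and 33.96 CPM against 215, 203 and 236 CPM. None of these ranges overlapped, at log2 ratios of -1.87, -2.55 and -2.52.

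Chemokines and cytokines moved both ways. Of 17 chemokine, interleukin 1 and NF-kB genes, 7 were higher, 7 lower and 3 did not pass (median 0.06). The shares over all genes were 32.6% higher and 31.9% lower. CXCL8, the neutrophil chemokine interleukin 8 (chr4:73740541-73743716), had 1.08, 1.27 and 1.54 CPM in caMKL1, 8.55, 10.6 and 9.19 CPM in MKL1 and 4.10, 5.77 and 4.53 CPM in control libraries, again with MKL1 highest, caMKL1 lowest and no overlap (log2 ratio over MKL1 -2.87 ± 0.20, adjusted p = 4e-09). Its fold over control in MKL1 libraries was 1.96, just under the 2-fold used for the 17 reversals. IL1B (-1.79), CXCL3 (-3.12), CXCL2 (-1.23) and CXCL1 (-1.20) fell too, while the interferon-induced CXCL11 had 56.8, 77.0 and 76.8 CPM in caMKL1 and 7.31, 8.57 and 5.66 CPM in MKL1 libraries (3.30). Of 12 gp130 cytokine and colony-stimulating factor genes, 5 were higher, 5 lower and 2 did not pass (median -0.24). CSF2, the factor GM-CSF, was at 0.115, 0.235 and 0.546 CPM in caMKL1, 4.14, 3.64 and 3.44 CPM in MKL1 and 0.934, 0.532 and 0.717 CPM in control libraries, and LIF (-2.36) fell as well. Of 15 tested lung metastasis genes, 7 were higher, 6 lower and 2 did not pass (median 0.13, 0.39 without MKL1 replicate 1 and 0.48 without both first replicates), with PTGS2, the inducible prostaglandin synthase (3.42), and the matrix gene TNC (2.48) higher and the collagenase gene MMP1 (-1.64) and ANGPTL4 (-2.59) lower.

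Reversals in the other direction were found too. Of the 899 genes called lower in MKL1 than in control, 11.5% were at least 2-fold higher in caMKL1 than in MKL1 with at least 5 CPM and no overlap. By the same rule it was 6.33% of genes not called between MKL1 and control and 33.2% of the 1378 called higher. These sets were not first limited by level. Genes under 5 CPM could not meet the rule, and their share in each set was not counted. By fold and test alone, 19.5% of all genes were called at least 2-fold higher. Of the 21 lowered at least 2-fold by the stricter rule, 3 were at least 2-fold higher in caMKL1 with no overlap. They were ZNF641, EPB41L1 and RORB, named after their values were seen. The 8 largest rises among genes called lower in MKL1 than in control were AKAP5, CREB5, CPEB3, SATB1, TLCD2, LOXL4, DENND2C and CSRNP3, at log2 ratios of caMKL1 over MKL1 of 3.66 down to 2.42. SATB1, a chromatin organiser, had 146, 161 and 156 CPM in caMKL1, 16.9, 21.5 and 25.1 CPM in MKL1 and 33.9, 33.6 and 41.9 CPM in control libraries. AKAP5, an anchoring protein for protein kinase A, had 120.98, 141 and 143 CPM, 10.3, 12.3 and 9.70 CPM and 15.2, 13.4 and 13.5 CPM in the same order, and in both genes the 3 groups did not overlap. Their decreases with MKL1 were small beside these rises, -0.79 and -0.39.

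Cell cycle genes were lower with caMKL1, in lists where few genes had been called between MKL1 and control. All 23 tested mitotic genes were lower in caMKL1 than in MKL1, each at least 2-fold (median -2.62). In MKL1 against control 2 of these 23 were higher, 21 did not pass and the median was 0.09. TOP2A, the mitotic topoisomerase, had 152, 168 and 158 CPM in caMKL1, 1045, 1222 and 1126 CPM in MKL1 and 1076, 1100 and 1001 CPM in control libraries. CENPA, the centromeric histone, had 2.35, 2.30 and 2.53 CPM in caMKL1 against 28.4, 18.5 and 22.7 CPM in MKL1 libraries, and CDC20, an activator of the anaphase-promoting complex, 18.2, 13.9 and 13.1 CPM against 150.4, 99.3 and 104 CPM. In all 3 the MKL1 and control ranges overlapped and the caMKL1 range lay below both. Of 24 DNA replication and nucleotide synthesis genes, 23 were lower and 1, TK1, did not pass (median -2.08). The ribonucleotide reductase subunit gene RRM2 (-3.17) and the origin-firing factor gene MCM10 (-3.10) fell the most, each by at least 8-fold.

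Most regulators of the cycle changed as well. Of 18 G1 cyclins, E2F factors and pocket proteins, 13 were lower, 2 higher and 3 did not pass (median -0.98), with CCND1, cyclin D1, at 88.4, 94.4 and 84.3 CPM in caMKL1 and 393, 515 and 455 CPM in MKL1 libraries and its kinase gene CDK4 at -2.33. Of 6 tested CDK inhibitors, 4 were higher and 2 lower (median 0.61), beside 32.6% higher and 31.9% lower over all genes. CDKN1A, the inhibitor p21, had 569, 439 and 428 CPM in caMKL1, 31.5, 18.8 and 19.3 CPM in MKL1 and 13.4, 16.2 and 16.3 CPM in control libraries, a log2 ratio over MKL1 of 4.37 ± 0.19 (adjusted p = 3.6e-11), and CDKN1B, the inhibitor p27, had 332, 361 and 415 CPM against 72.1, 76.1 and 80.5 CPM in MKL1 libraries. CDKN3 (-1.71), a phosphatase that peaks in mitosis, fell. Of 11 replication-dependent histone genes, 10 were higher and 1 lower (median 1.64), led by H2BC21 (5.75). The summed level of the list's 14 members was not higher in caMKL1. It was 267.2 to 294.7 CPM there, 292.6 to 324.9 CPM in MKL1 and 282.6 to 314.6 CPM in control libraries. Most transcripts of these histone genes lack a polyA tail and histone copies share sequence, so polyA libraries count an unknown part of them.

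The promoters of CENPA and CDC20 are shown because the CHR element TTTGAA is known to bind cell cycle repressor complexes. The letters TTTGAA on either strand, and in CENPA the E2F motif TTTCCCGC, are in capitals. Both lie on the plus strand, at chr2:26785806-26786105 and chr1:43358731-43359030.
CENPA: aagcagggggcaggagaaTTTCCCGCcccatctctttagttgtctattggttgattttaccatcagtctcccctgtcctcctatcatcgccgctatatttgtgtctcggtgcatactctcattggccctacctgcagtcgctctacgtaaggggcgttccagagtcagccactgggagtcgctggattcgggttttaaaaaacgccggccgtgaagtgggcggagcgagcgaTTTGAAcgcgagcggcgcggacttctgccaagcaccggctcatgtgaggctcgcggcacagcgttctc
CDC20: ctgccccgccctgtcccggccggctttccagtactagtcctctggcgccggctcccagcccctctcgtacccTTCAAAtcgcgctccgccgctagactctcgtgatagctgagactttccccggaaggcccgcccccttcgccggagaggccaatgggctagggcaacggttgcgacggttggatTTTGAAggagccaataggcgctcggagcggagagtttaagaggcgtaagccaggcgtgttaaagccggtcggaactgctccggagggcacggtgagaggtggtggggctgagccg
TTTGAA was present in 12 of 19 mitotic promoters (63.2%), against 13.3% of promoters of genes called at least 2-fold lower, 12.3% of those called at least 2-fold higher, 10.6% of promoters of all tested genes and 15.4% of all promoters. It was also present in 5 of 12 promoters of smooth muscle genes (41.7%), a list that was mostly higher in caMKL1. An E2F motif, TTTCCCGC or TTTGGCGC on either strand, was present in 12 of 21 replication promoters (57.1%), in 5.09% of promoters of genes at least 2-fold lower, in 2.28% of those at least 2-fold higher, in 3.53% of promoters of all tested genes and in 2.31% of all promoters. TTTGAA was present in 4.76% of the replication promoters and an E2F motif in 10.5% of the mitotic ones. Both lists are made of known cell cycle genes, which partly fixes their shares of these motifs. A link between the motifs and the decreases was not tested.

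The 10 largest decreases held 2 mitotic genes, CENPA and the kinesin gene KIF18B (-3.27), beside the transporter gene SLCO4A1 (-3.82), the zinc finger gene ZNF521 (-3.49), ENG, the noncoding RNA LINC00973 (-3.38), the hormone gene STC1 (-3.37), MYEOV (-3.31), the potassium channel gene KCNN4 (-3.30) and TNFSF15. In each of these 10 the caMKL1 libraries also lay below the control range.

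Markers of identity changed without a uniform direction. The counts below stand beside shares over all genes of 32.6% higher and 31.9% lower. Of 9 tested EMT transcription factors and cadherins, 5 were higher and 4 lower (median 0.89), with CDH11, a mesenchymal cadherin (2.47), and VIM (1.33) higher and SNAI2 and SNAI1 (-1.15) lower. Of 20 keratins and epithelial junction genes, 10 were higher, 5 lower and 5 did not pass (median 0.18). KRT19, a simple keratin, had 918, 769 and 796 CPM in caMKL1 and 46.9, 46.2 and 53.7 CPM in MKL1 libraries (4.08), and KRT17 (3.96) and KRT16 (5.47) rose, genes whose near copies can split reads. All 4 tested endothelial genes were lower (median -1.93), at a summed level of 4.18 to 6.19 CPM in caMKL1 and 19.0 to 23.0 CPM in MKL1 libraries. Leukocyte genes (1 of 3 tested higher, 1 lower, median -0.67) summed to 3.92 to 6.77 CPM in caMKL1 and 4.29 to 7.76 CPM in MKL1 libraries, and fibroblast genes (1 of 4 higher, 1 lower, median -0.19) to 10.3 to 12.04 CPM and 8.79 to 11.9 CPM. Of the defining markers, PTPRC of leukocytes averaged 0.256 CPM in caMKL1 and 0.183 CPM in MKL1 libraries, CDH5 of endothelium 0.464 and 0.0511 CPM, PECAM1 of endothelium 0.997 and 2.54 CPM, and DPT of fibroblasts had 0 counts in all 6 libraries.

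Of 25 interferon-stimulated genes, 9 were higher, 9 lower and 7 did not pass (median -0.14). These shares were near those over all genes, 32.6% higher and 31.9% lower. Of 18 MHC class I antigen processing genes, 8 were higher, 5 lower and 5 did not pass (median 0.30). TAP1, the peptide transporter subunit, had 226, 162 and 156 CPM in caMKL1 and 17.3, 11.5 and 11.7 CPM in MKL1 libraries (3.75). Glycolysis and hypoxia genes were mostly lower, 15 of 23, with 3 higher and 5 that did not pass (median -0.64), although ADM, the peptide adrenomedullin, rose (3.28). Cholesterol genes were lower in 12 of 23, higher in 5 and did not pass in 6 (median -0.40). Of 18 unfolded protein and stress response genes, 11 were higher, 7 did not pass and none was lower (median 0.54), led by HSPA1A (3.42), which shares reads with its copy HSPA1B.

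Measures of library quality moved in part with the groups. All 13 mitochondrially encoded messenger RNAs were higher (median 1.04) and all 30 cytosolic ribosomal protein genes lower (median -0.77) in caMKL1. The summed mitochondrial levels overlapped, at 70920 to 141000 CPM in caMKL1 and 50780 to 78430 CPM in MKL1 libraries. With library totals, 8 of the 13 were called higher. The ribosomal protein genes took 0.690 to 0.877% of counts in caMKL1 and 1.39 to 1.95% in MKL1 libraries. The part of these shifts in the gene results was not tested. With both first replicates left out, 12374 genes were called, and the mitotic genes kept 23 of 23 lower (median -2.68).

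The same contrast in mouse 4T1 cells showed where LM2 differed. There 5500 of 16297 genes (33.7%) were higher and 5340 (32.8%) lower in caMKL1 than in MKL1, 66.5% together. Of 10360 genes matched by symbol, 7244 (69.9%) differed between the lines by the test of the difference (edgeR with both lines in 1 model). The lines' separate counting and depth are part of every such difference. The median over 14 matched smooth muscle genes was 4.15 in LM2 and 4.11 in 4T1, but single genes differed, with the difference called for 11 of the 14. The 35 cytoskeletal targets had medians of 1.43 and 1.14, with 26 differences called. For mitotic genes the median over 23 was -2.62 in LM2 and -0.16 in 4T1, where 14 were lower, 6 higher and 3 did not pass, and all 23 differences were called. On the log2 scale TOP2A fell by 2.83 in LM2 and by 0.67 in 4T1 (difference -2.03, adjusted p = 5.4e-13). CDKN1A was higher in LM2 and lower in 4T1 (-1.17, difference 5.67, adjusted p = 4.8e-14), whereas CCND1 was lower in both (-2.35 in LM2 and -2.53 in 4T1).

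Of the 17 genes that fell in caMKL1 after a rise in MKL1, 8 could be matched to tested 4T1 genes, and there 6 were higher and 2 lower in caMKL1 than in MKL1. PLAU was higher in caMKL1 than in MKL1 there (1.17, adjusted p = 9.5e-27), a difference from LM2 of -3.49. TGM2 (0.48) and TNFSF15 (4.48) were likewise higher in 4T1, and MYC (-0.78) was lower, as in LM2. Of the 8 genes that rose in caMKL1 after a decrease in MKL1, 7 were matched: 3 were higher in 4T1, 2 did not pass and 2, SATB1 (-1.40) and AKAP5 (-1.38), were lower. Both sets were chosen for their change in LM2, so a difference between lines is partly fixed by that choice. UNC45B rose in both lines, on the log2 scale by 7.56 in LM2 and 3.67 in 4T1 (difference 4.03, adjusted p = 1.7e-06), and ACTC1 rose less in LM2 (4.99) than in 4T1 (9.02). MRTFA itself differed: its log2 ratio was 0.43 in LM2 and -1.78 in 4T1 (difference 2.35, adjusted p = 5.9e-11). ELAVL4 and CXCL8 have no value in the 4T1 contrast here.

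**Figure D5:**
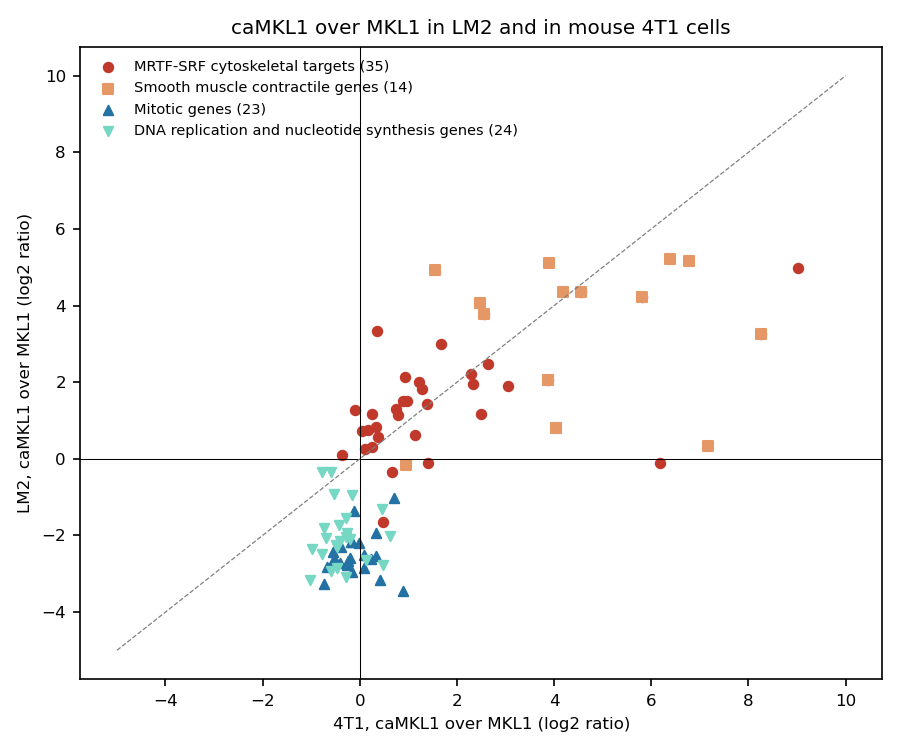
Log2 ratio of caMKL1 over MKL1 in LM2 (vertical) against that in mouse 4T1 cells (horizontal), 1 point per gene of 4 lists. The lists are cytoskeletal targets, smooth muscle, mitotic and replication genes, with the number of genes in parentheses. Genes in both the cytoskeletal and the smooth muscle list are drawn as smooth muscle. The dashed line marks equal ratios. Mitotic and replication genes lie below 0 in LM2, at medians of -2.62 and -2.08, and on both sides of 0 in 4T1.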

How the data were processed

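RNA-seq of LM2 and 4T1 libraries was used; the LifeAct libraries of the series were not analysed here. Each deposited value is a raw count of read pairs for a gene name, which per the file headers featureCounts 2.0.1 made on STAR alignments (STAR version not given in the sources used here), over exons of Ensembl release 103 (GRCh38) for LM2 and 102 for 4T1. The headers show no strand option, so reads of antisense or divergent transcripts such as KDM7A-DT cannot be told from overlapping genes, and no option for multi-mapped reads. Per the submitters' processing notes, featureCounts and DESeq2 were used. Each of the 18 count columns had 1 matching sample, and 0 columns stayed without one.

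Genes passing edgeR's filter (minimum count 10) entered a quasi-likelihood test (edgeR 4.0.16, R 4.3.3) on the 9 LM2 libraries with TMM scaling, a prior count of 0.125 and Benjamini-Hochberg adjustment at 0.05. 4T1 was fitted in the same way, and the difference between lines in 1 model of 10360 genes matched by symbol, scaled over those genes, so it is not the exact difference of the 2 ratios. Where a group had no count, folds are bounds against 3 counts for the group. TPM used exon lengths and no TMM adjustment. The fits were tested on simulated data. Alternatives used DESeq2 1.42.0, limma 3.58.1, other scalings and filters, and left-out libraries.

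The genes, gene lists and comparisons were chosen with earlier results of these data known. Named genes are the 10 largest rises and decreases with an adjusted p below 0.05, at least 5 CPM over the 6 libraries and no overlap of ranges (clone-named genes passed over), the 8 largest among genes reversed or new to caMKL1, the 4 markers ELAVL4, UNC45B, PLAU and CXCL8, the construct's gene and partners, and up to 6 members per list. Some genes and 1 list that these rules took are not reported here. Motifs were searched on both strands. In the same-number check, deviations of caMKL1 and MKL1 libraries correlated at 0.30, 0.19 and 0.06. Libraries of different number correlated at -0.317 to 0.177. This check did not settle whether the numbers are pairs. They were not taken as pairs in the main fit, and results with a replicate block are given below.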

Additional observations from a re-analysis of the deposited data

Results flagged for a closer look

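These results were singled out because the test of the difference found caMKL1 over MKL1 to act differently in LM2 and in 4T1 cells. The log2 difference, LM2 minus 4T1, was -3.49 for PLAU, -3.27 for TGM2 and -7.64 for TNFSF15, all lower in LM2 and higher in 4T1. These 3 genes and the next 2 were chosen for their change in LM2, which partly fixes the difference. It was 4.39 for SATB1 and 5.17 for AKAP5, higher in LM2 and lower in 4T1, and 5.67 for CDKN1A in the same sense. For TOP2A it was -2.03, with a decrease in both lines. UNC45B (4.03) and ACTC1 (-3.88) rose in both lines by different amounts. MRTFA itself differed by 2.35, and the part of that in the other differences was not tested.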

How the results depend on the processing

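In LM2, 12186 genes were called between caMKL1 and MKL1. Other tools, scalings, filters and sets of libraries gave 11446 to 14059 calls, among them 12374 without both first replicates and 12719 with a replicate block, although the replicate numbers were not taken as pairs. With 1 library left out, 11135 to 12057 were called. Scaling by library totals gave 4429 higher and 8638 lower. Between MKL1 and control, 2277 genes were called, 3266 with the block and 1113 to 2695 with 1 library left out, with 1113, 1269 and 1295 without control replicate 3, 2 and 1. Of 2014 alternative values of gene ratios and differences between lines, 2010 kept their direction and side of the threshold. MRTFA lost its call in 2, and ACTG1, not called, turned to 0.025 without both first replicates and ranged from -0.258 to 0.182 with 1 library left out. Medians of lists near 0 turned sign in 16 of 629 values, and 43 others moved by over 0.25. With library totals these were the TGF-beta (-0.32), chemokine (-0.285), lung metastasis (-0.211), keratin (-0.156) and MHC class I (-0.028) lists, and with no filter on low counts the TGF-beta (-0.042) and chemokine (-0.002) lists. The YAP-TEAD median was 0.048 without both first replicates. With 1 library left out, medians ranged from -0.096 to 0.049 for YAP-TEAD, -0.094 to 0.151 for TGF-beta, -0.001 to 0.13 for chemokine and -0.189 to 0.026 for interferon-stimulated genes. The cause of these changes was not tested.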

Other observations

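Exon length went only weakly with the log2 ratio of caMKL1 over MKL1. With the tested genes split into 4 equal groups from the shortest to the longest exons, the median log2 ratio was -0.07, -0.10, -0.06 and 0.06.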
